A study of Mus musculus with 281 samples.

Results

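The 10 genes described here control where mineral forms in tissue. They are the alkaline phosphatase Alpl, the phosphatase Phospho1, the pyrophosphate suppliers Enpp1 and Ank, the phosphate importers Slc20a1 and Slc20a2, the matrix proteins Spp1, Mgp and Bglap, and the protein kinase Fam20c. They were taken by name, 10 of the 47752 genes in the table, and read as CPM, the estimated counts of a gene scaled to the same total in every cell. The list was made because Alpl and Bglap had been lower in mutant intermediate cells, so the values of both genes in that comparison are a description and support nothing further. Bglap2 and Bglap3 are given beside Bglap because the paralogs share sequence.

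The study asked how single cells of the mouse stria vascularis, the ion-transporting epithelium of the cochlear lateral wall, differ when pendrin is lost. Pendrin is the anion exchanger encoded by Slc26a4, and the Slc26a4-/- mouse is a model of Pendred syndrome. Cells of male 129S6 mice were picked by micropipette and profiled with Smart-Seq2, and of the profiled cells 40 came from Slc26a4+/- mice aged 26 to 33 days, 69 from Slc26a4-/- mice aged 24 to 44 days and the rest from Slc26a4+/+ mice aged 22 to 42 days. No cell is tied to a named mouse, so each genotype was treated as 1 sample and no test was run, and intervals given for shares of cells cover counting error only.

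The cells were sequenced on 4 run dates and collected in 37 sessions, as read from the profile names. Run dates 2 and 4 held both homozygous genotypes, run date 3 held Slc26a4+/+ cells alone, and run date 1 held 52 Slc26a4+/+ cells and 1 Slc26a4-/- cell. Total counts per cell had a median of 1166720 in Slc26a4+/+, 2221970 in Slc26a4+/- and 1226470 in Slc26a4-/-, and all 20 cells below 100000 counts were Slc26a4+/+. Clusters were rebuilt without the listed genes and named from markers. They gave 60 Slc26a4+/+, 23 Slc26a4+/- and 34 Slc26a4-/- cells like intermediate cells (IMC-like), 34 like spindle cells (SC-like), 35 like root cells (RC-like) and 21 like marginal cells (MC-like). Another 74 cells in 2 clusters stayed unnamed. IMC-like cells held 10 of 12 IMC markers at 10 CPM or more in Slc26a4+/+, but Tyrp1 was listed at 0 and Pmel averaged 0.362 CPM. Slc26a4 counts did not check the genotype labels, since RC-like cells averaged 1050 CPM in Slc26a4+/+ and 1222 CPM in Slc26a4-/-. The deleted part of the allele is not given in the sources used here, and gene counts do not resolve exons.

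Mineral forms when phosphate meets calcium and the local inhibitors are removed. Inorganic pyrophosphate is the main inhibitor: ENPP1 makes it outside the cell from nucleotides, the transporter ANK exports the nucleotides or pyrophosphate on which this supply rests, and the alkaline phosphatase TNAP, product of Alpl, destroys it and releases phosphate. Osteopontin (Spp1) and matrix Gla protein (Mgp) bind mineral and restrain it, osteocalcin (Bglap) is the Gla protein of osteoblasts, and FAM20C phosphorylates osteopontin and related secreted proteins. In the stria vascularis, intermediate cells are melanocyte-like cells that carry the potassium channel Kcnj10, and marginal cells face the endolymph.

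The listed genes differed in the cell type that held most of them in Slc26a4+/+. Alpl was highest in IMC-like cells, Enpp1 in RC-like cells, and Spp1, Fam20c and the paralog Bglap3 in MC-like cells. Ank was shared by SC-like and MC-like cells, and Slc20a2 was lowest in MC-like cells, though 88.9% of its RC-like sum came from 1 cell, without which the RC-like mean was 10.06 CPM. Of the 10 genes, 9 reached a mean of 10 CPM in a named type, as did 11393 of all genes, and Phospho1 did not. Among those genes, 8.65% were highest in IMC-like cells by at least 1 log2 unit over the next type, 11.4% in RC-like cells, 8.41% in SC-like cells and 6.05% in MC-like cells. The map of means by type and genotype shows the listed genes.

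**Figure D1:**
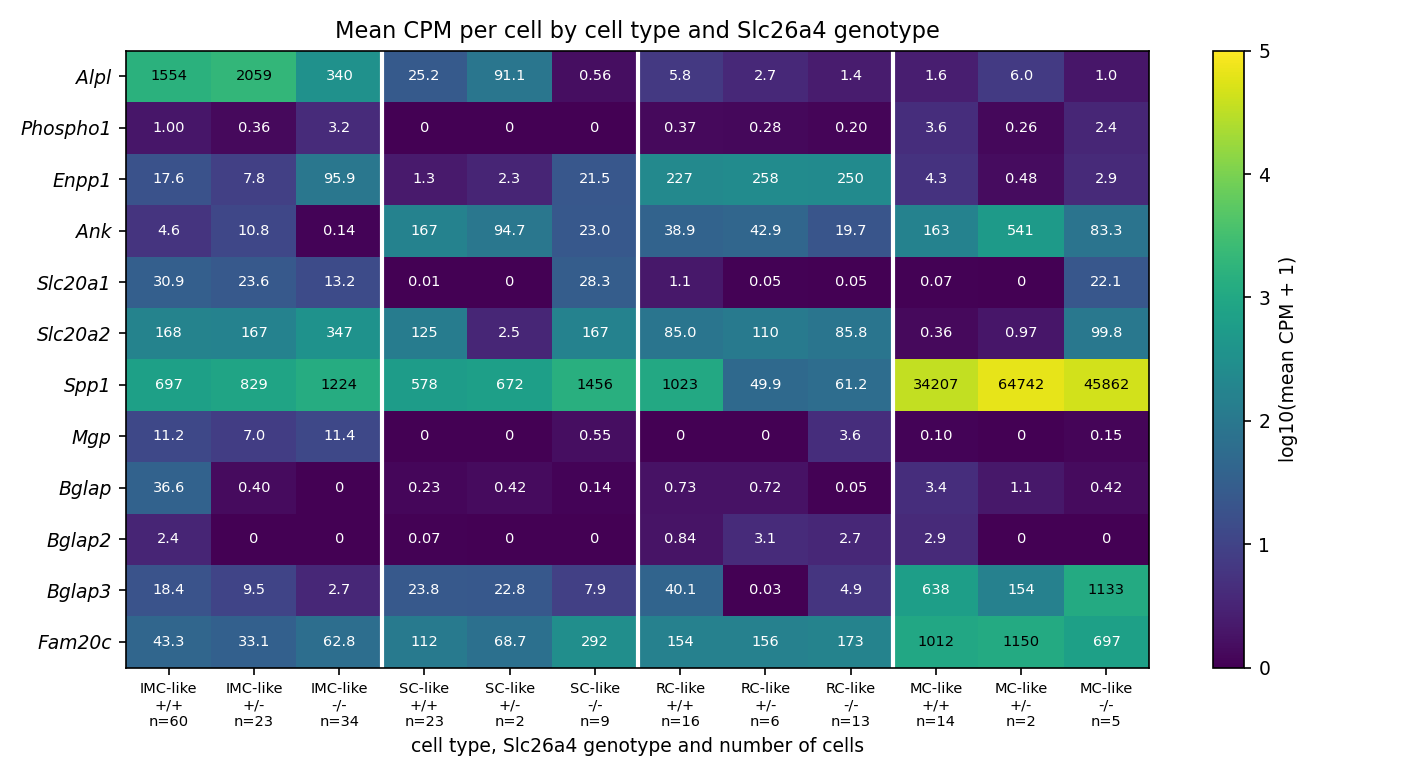
Mean CPM of the listed genes and of Bglap2 and Bglap3 in each cell type and genotype, with the mean printed in each field and log10(mean CPM + 1) as colour. Alpl is high in IMC-like cells (1554 CPM in Slc26a4+/+ against 340 in Slc26a4-/-), Enpp1 is high in RC-like cells, and Spp1 reaches 34207 CPM in Slc26a4+/+ MC-like cells.

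Alpl, on the minus strand of chromosome 4 (chr4:137741733-137796384, GRCm38), encodes tissue-nonspecific alkaline phosphatase. In Slc26a4+/+ IMC-like cells it ranged from 142.1 to 6073 CPM, with a median of 1407 and a mean of 1554 ± 1096 (SD over 60 cells). Every one of these 60 cells held at least 100 CPM (95% exact Clopper-Pearson interval of the share from 94.04%). Means over their 20 collection sessions ran from 297.6 to 2862 CPM.

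In the other named types, Alpl was close to its floor in Slc26a4+/+. This did not hold for all unnamed Slc26a4+/+ cells, among which were cells of 1139 and 1458 CPM. MC-like cells held 0 to 4.40 CPM and RC-like cells 0 to 41.1 CPM. The SC-like mean of 25.2 CPM came from 1 cell with a total of 1848 counts, which showed 541 CPM, and was 1.76 CPM without it. The IMC-like mean was 5.89 higher than the SC-like mean on the log2 scale with a pseudocount of 1 CPM, and 0.727% of the genes highest in IMC-like cells had a gap over the next type of this size or more. Once the highest cell of each type was left out, the next type was RC-like and the gap was 8.38. After thinning each cell to 100000 counts, 60 of 60 IMC-like cells kept an Alpl count, against 1 of 14 MC-like cells.

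The genes whose levels followed Alpl most closely over 110 named Slc26a4+/+ cells were Slc45a2 and Dct, both pigment cell genes, and Dkk3, a secreted Wnt-pathway protein. Their rank correlations with Alpl were each 0.84. The points share library depth and cell type.

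Transcript estimates placed most of the Alpl signal at 1 of its start sites. In Slc26a4+/+ IMC-like cells, 94.7% of the estimated counts lay on the transcript that starts at 137796384, 4.50% on a short one that starts at 137785371, and 0.379% on one that starts at 137766475. Per length the split was less extreme, with 875.3, 401.0 and 19.2 TPM. The promoters at the first and the last of these starts are printed from RefSeq (GRCm38.p6, minus strand, 250 bases before to 50 after the start), because they show how the most used and an almost unused start differ in sequence. Capitals mark the letters GGGCGG, the core of a GC box, on either strand, with overlapping matches run together. The upstream promoter spans chr4:137796335-137796634 and holds 3 matches, and the internal one spans chr4:137766426-137766725 and holds 0.
Alpl, upstream start: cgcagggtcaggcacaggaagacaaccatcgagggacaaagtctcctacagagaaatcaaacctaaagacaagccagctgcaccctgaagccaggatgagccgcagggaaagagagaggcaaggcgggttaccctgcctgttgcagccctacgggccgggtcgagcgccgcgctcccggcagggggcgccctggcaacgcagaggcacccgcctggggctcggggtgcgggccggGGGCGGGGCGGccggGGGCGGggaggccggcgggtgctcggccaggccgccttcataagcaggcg
Alpl, internal start: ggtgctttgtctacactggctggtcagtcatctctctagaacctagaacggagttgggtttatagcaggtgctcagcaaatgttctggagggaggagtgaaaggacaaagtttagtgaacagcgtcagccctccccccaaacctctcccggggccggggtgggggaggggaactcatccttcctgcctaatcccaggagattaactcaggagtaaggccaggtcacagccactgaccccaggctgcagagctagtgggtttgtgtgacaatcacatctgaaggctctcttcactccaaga
These letters occurred in 35.7% of 32851 RefSeq promoters of the same length. The E-box letters CATGTG occurred in neither Alpl promoter and in 14.2% of all promoters. A match is a description of the letters and no binding was measured.

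Alpl was lower in Slc26a4-/- IMC-like cells and spread out. The 34 cells ranged from 0 to 2537 CPM, with a median of 129 and a mean of 340 ± 543 (SD). Of these, 17 lay below the lowest Slc26a4+/+ cell and below 100 CPM (95% exact interval of the share 32.4% to 67.6%). Another 2 reached the Slc26a4+/+ median, so the genotypes overlapped without sharing a centre. Cells with almost no Alpl and cells at the Slc26a4+/+ level were both present in Slc26a4-/-.

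**Figure D2:**
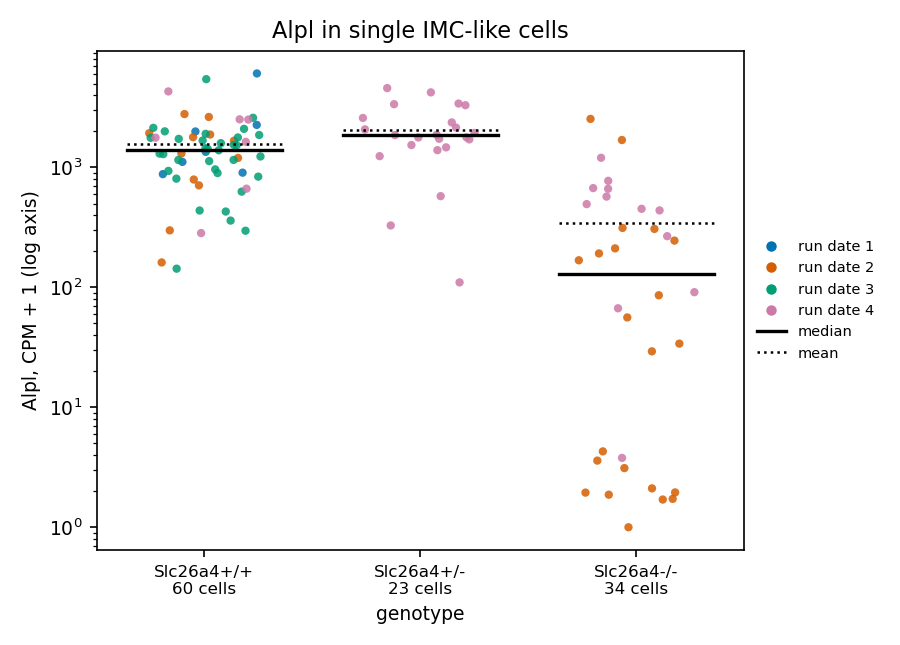
Alpl in each IMC-like cell by genotype, as CPM + 1 on a log axis, with points coloured by run date, solid lines at medians and dotted lines at means. All 60 Slc26a4+/+ and 23 Slc26a4+/- cells sit above 100 CPM, and 17 of 34 Slc26a4-/- cells sit below it.

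The difference was -2.19 on the log2 scale for Slc26a4-/- over Slc26a4+/+ over all run dates. It was -2.42 within run date 2, with means of 266.99 and 1428 CPM, and -2.04 within run date 4, with means of 474 and 1953 CPM. In the medians over cells the difference was larger, at -3.44. In the same comparison 17.8% of 9569 genes at 10 CPM or more were lower by at least 1 log2 unit (24.2% within run date 2 and 21.2% within run date 4), and 6.3% of 8221 genes were lower in both run dates, as Alpl was. Because the list was built on this contrast, nothing is read from those shares.

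Slc26a4+/- cells, which were all sequenced on run date 4, lay in the Slc26a4+/+ range of Alpl or just below it. Their 23 values ran from 108.98 to 4584 CPM, with a median of 1857 and a mean of 2059. Against Slc26a4+/+ cells of the same run date the difference was 0.08, and Slc26a4-/- cells were 2.12 log2 units below Slc26a4+/- cells. In the latter comparison 17.1% of genes were lower by at least 1 unit.

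Summed IMC markers had a median of 48688 CPM in Slc26a4+/+ and 74392 CPM in Slc26a4-/-, and none of the 10 markers that passed 10 CPM was lower by 1 log2 unit over all run dates, although Mlana was within run date 4. Across single cells, the rank correlation of Alpl with the summed IMC markers was 0.43 over the 34 Slc26a4-/- cells and 0.39 over the 60 Slc26a4+/+ cells, and their part was not tested. Median total counts of the IMC-like cells were 1334290 and 1402360. After thinning to 100000 counts, 24 of 34 Slc26a4-/- cells kept an Alpl count (70.6%, interval 52.5% to 84.9%). Depth did differ between the Slc26a4-/- run dates, with medians of 981782 on run date 2 and 3940870 on run date 4, against 1310250 and 1831850 in Slc26a4+/+, and Alpl had medians of 30.6 and 472 CPM in the Slc26a4-/- cells of these dates. The part of depth was not tested beyond the thinning.

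Sessions of Slc26a4-/- mice had Alpl means from 2.59 to 865 CPM. Of the collection codes of run date 2, 5 held IMC-like cells of both homozygous genotypes, and Alpl was lower in Slc26a4-/- in 4 of them. The means in Slc26a4+/+ and Slc26a4-/- were 1825 and 62.4, 2709 and 2.59, 1199 and 662, 989.8 and 90.2, and 297.6 and 865 CPM, and 3 of the 5 codes had a single cell in one genotype. Ages were the same in 1 code, the exception, where the single Slc26a4+/+ cell held 297.6 CPM and the 3 Slc26a4-/- cells held 1.11, 55.1 and 2537 CPM. Gene counts of Enpp1, which encodes the enzyme that makes pyrophosphate outside the cell, were higher in Slc26a4-/- in 4 of the 5 codes. With cells aged 24 to 34 days only, the log2 difference of Alpl was -2.08.

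Within Slc26a4-/- IMC-like cells, those with more Alpl tended to have more of the pigment genes. The rank correlation with Alpl over 34 cells was 0.52 for Slc45a2 and 0.44 for Dct, and it was -0.45 for Kcnj10, the potassium channel of intermediate cells. Over 60 Slc26a4+/+ cells the same values were 0.32, 0.33 and 0.22. Alpl also followed total counts at 0.32 in Slc26a4-/- cells, so depth moved with it, and the part of depth was not tested. The cells of each genotype were pooled over run dates, and the part of run date in these correlations was not tested.

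Phospho1, the phosphatase that frees phosphate inside matrix vesicles, was close to absent. Its highest mean was 3.55 CPM, in Slc26a4+/+ MC-like cells, where 1 cell of 46.9 CPM carried it. Among IMC-like cells 10 of 60 Slc26a4+/+ and 7 of 34 Slc26a4-/- cells held a count, with highest cells of 23.7 and 78.5 CPM. SC-like cells held none in any genotype. The gene span of Phospho1 overlaps those of Zfp652 and Abi3 on chromosome 11, and Zfp652 averaged 39.4 CPM in IMC-like cells. Whether their exons overlap, and so whether any of these few reads could be shared, was not examined.

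Among the named types, Enpp1 had its highest mean gene counts in RC-like cells in every genotype. Its mean in RC-like cells was 226.9 CPM in Slc26a4+/+, 258.4 in Slc26a4+/- and 250.3 in Slc26a4-/-. The cells held either little or much of it. In Slc26a4+/+, 6 of 16 RC-like cells held over 100 CPM and reached 1241, with a median of 3.69. In Slc26a4-/-, 4 of 13 held over 100 CPM and reached 1341, with a median of 20.6. The RC-like genotypes thus overlapped over their whole range. In Slc26a4+/+ RC-like cells, 83.8% of the estimated Enpp1 counts lay on a transcript annotated as a retained intron. That transcript held 2637 estimated counts in these 16 cells and 1551 in 11 Slc26a4+/+ cells of an unnamed cluster.

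In IMC-like cells gene counts of Enpp1 were low in Slc26a4+/+ and higher in Slc26a4-/-. Slc26a4+/+ cells had a median of 0.893 CPM, a mean of 17.6 and a highest cell of 391, and 3 of 60 held 100 CPM or more (5.00%, exact interval 1.04% to 13.9%). Slc26a4-/- cells had a median of 8.99, a mean of 95.9 and a highest cell of 911, and 10 of 34 held 100 CPM or more (29.4%, interval 15.1% to 47.5%). None of 23 Slc26a4+/- cells did, and their highest held 83.9 CPM.

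The log2 difference of Enpp1 in IMC-like cells, Slc26a4-/- over Slc26a4+/+, was 2.39 over all run dates, 2.13 within run date 2 and 1.58 within run date 4. Over Slc26a4+/- cells of run date 4 it was 2.79. Of all genes 11.5% were higher by at least 1 unit over all run dates, 27.4% within run date 2, 24.7% within run date 4, 8.47% of 8221 in both, and 16.5% over Slc26a4+/-. For Slc26a4+/- over Slc26a4+/+ cells of run date 4 Enpp1 had -1.21, where 19.8% of genes were lower and 24.3% higher by 1 unit. By gene counts, Enpp1 and Alpl stood on opposite sides of the comparison, and their rank correlation within the 34 Slc26a4-/- cells was -0.07. Most Enpp1 counts, 61.9% over all cells, were placed on a transcript annotated as a retained intron, so the counts do not equal coding message. In IMC-like cells that transcript held 5.38 TPM in Slc26a4+/+ and 43.2 TPM in Slc26a4-/-. Another retained intron held 1.56 and 0.49 TPM, and a transcript annotated for nonsense-mediated decay 0 and 10.2 TPM. The coding transcripts held 0.06 and 2.34 TPM in Slc26a4+/+ and 0.34 and 1.56 TPM in Slc26a4-/-. The higher gene counts thus do not equal higher coding message.

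**Figure D3:**
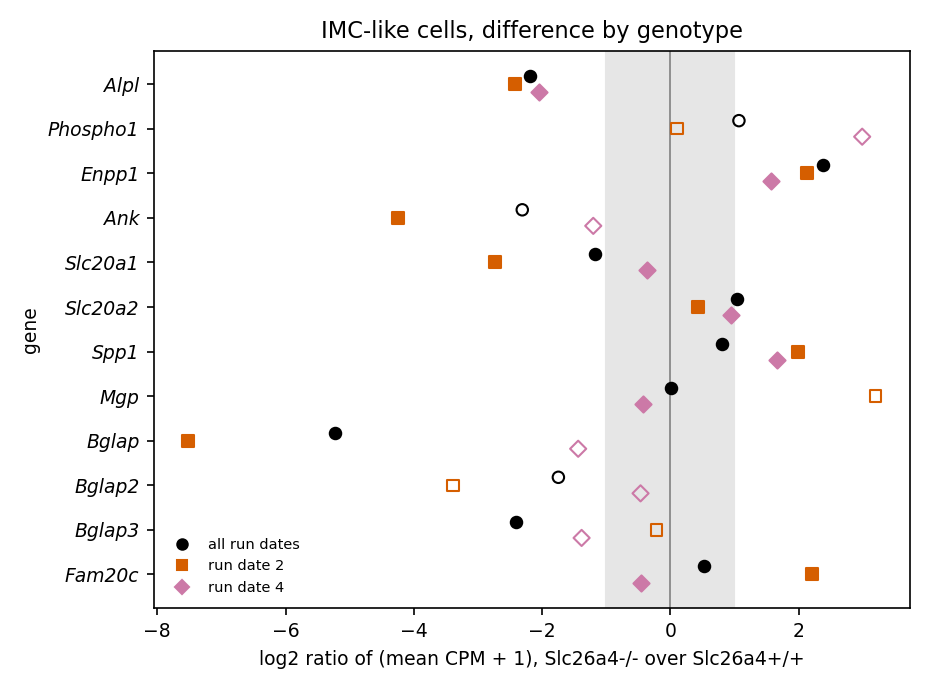
Log2 ratio of (mean CPM + 1) of Slc26a4-/- over Slc26a4+/+ IMC-like cells for each gene, over all run dates and within run dates 2 and 4, with open symbols where neither mean reached 10 CPM and grey for less than 1 log2 unit. Alpl is near -2 in all 3 comparisons and Enpp1 above 1 in all 3, whereas Bglap runs from -7.52 to -1.44.

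Ank, the pyrophosphate and nucleotide exporter (chromosome 15), was a gene of SC-like and MC-like cells. In Slc26a4+/+ SC-like cells it ranged from 0 to 928 CPM with a median of 122.2 and a mean of 166.95, and in MC-like cells from 0 to 626 CPM with a median of 18.97 and a mean of 162.7. The difference of these means is within the spread between cells. RC-like cells averaged 38.9 CPM, and IMC-like cells 0.422 CPM once a single cell of 252.7 CPM was left out.

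SC-like cells of Slc26a4-/- had less Ank. Their 9 values ran from 0 to 71.3 CPM with a mean of 22.97, and none reached 100 CPM, against 12 of 23 Slc26a4+/+ cells (52.2%, interval 30.6% to 73.2%). The log2 difference was -2.81, in a comparison where 33.4% of 10010 genes were lower and 22.1% higher by 1 unit or more. All 9 Slc26a4-/- cells came from run date 2, where only 2 Slc26a4+/+ SC-like cells were sequenced, with 0 and 214.8 CPM. Within that run date the log2 difference was -2.18. The summed SC markers were also lower in the Slc26a4-/- SC-like cells, with medians of 9726 against 44341 CPM, and the summed MC markers higher, with 8214 against 3581 CPM, and their part was not tested. In MC-like cells the Ank means were 162.7, 541 and 83.3 CPM in Slc26a4+/+, Slc26a4+/- and Slc26a4-/-. Ank overlaps Otulin on the other strand, which averaged 75.8 CPM in MC-like cells, and the libraries do not mark strand.

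Slc20a2, the phosphate importer PiT-2 (chromosome 8), had counts in most IMC-like cells, and Slc20a1, PiT-1 (chromosome 2), in few. Slc20a2 in Slc26a4+/+ IMC-like cells ranged from 0 to 991 CPM with a median of 83.7 and a mean of 168.5. In Slc26a4-/- it ranged from 0 to 1678 CPM with a median of 262.98 and a mean of 347, and in Slc26a4+/- the mean was 166.9. Cells of all genotypes covered the low range, and the highest cells were Slc26a4-/-.

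The log2 difference of Slc20a2, Slc26a4-/- over Slc26a4+/+, was 1.04 over all run dates, but 0.44 within run date 2 and 0.95 within run date 4, below the limit of 1 unit in both. MC-like cells were the type without Slc20a2 in Slc26a4+/+, with a highest cell of 2.77 CPM. Among 5 Slc26a4-/- MC-like cells 1 cell held 436 CPM. Slc20a2 meets Smim19, which averaged 89.1 CPM in IMC-like cells, on the other strand.

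Slc20a1 had counts in 13 of 60 Slc26a4+/+, 7 of 23 Slc26a4+/- and 10 of 34 Slc26a4-/- IMC-like cells, with means of 30.9, 23.6 and 13.2 CPM. Its difference for Slc26a4-/- over Slc26a4+/+ was -1.17 over all run dates, -2.73 within run date 2 and -0.36 within run date 4, and the highest cells were 592 and 122.8 CPM. A few bright cells set these means, as the median was 0 in every genotype. The main Slc20a1 transcripts annotated as retained introns held 14.2, 10.3 and 5.89 TPM in Slc26a4+/+ IMC-like cells. In Slc26a4-/- the same transcripts held 0.41, 0.11 and 0 TPM. The main coding transcripts held 0.98 and 5.64 TPM in Slc26a4+/+ and 3.08 and 2.90 TPM in Slc26a4-/-. The lower gene counts thus do not equal lower coding message. In the other types of Slc26a4+/+ the Slc20a1 means were 1.11 CPM or less.

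Spp1, which encodes osteopontin, was the marginal cell gene of the list (chr5:104435118-104441050). In Slc26a4+/+ MC-like cells it ran from 5.87 to 67538 CPM with a median of 34090, and the cell above the lowest already held 6717 CPM. The 2 Slc26a4+/- cells held 62563 and 66922 CPM. The 5 Slc26a4-/- cells held 13453, 23885, 30577, 67430 and 93966 CPM. Genotypes overlapped, with a log2 difference of 0.42 for Slc26a4-/- over Slc26a4+/+, where 26.4% of genes were lower and 26.1% higher by 1 unit. The genes most like Spp1 over 110 named Slc26a4+/+ cells were Kcne1 (rank correlation 0.60), Ptgds (0.58) and Slc12a2 (0.55), and Kcne1 and Slc12a2 are channel and transporter genes of marginal cells.

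Spp1 was also detected in IMC-like cells, where Slc26a4-/- cells held more. Slc26a4+/+ values ran from 0 to 7974 CPM with a median of 283.8 and a mean of 697. Slc26a4+/- values had a median of 598 and a mean of 829.4. Slc26a4-/- values ran from 0 to 6724 CPM with a median of 756 and a mean of 1224. The log2 difference of Slc26a4-/- over Slc26a4+/+ was 0.81 over all run dates, 1.99 within run date 2 and 1.66 within run date 4, and Slc26a4+/- cells of run date 4 were also 1.36 above Slc26a4+/+ cells of that date.

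Marginal cell markers were read in the same IMC-like cells. The 10 markers together had a median of 664 CPM in Slc26a4+/+ IMC-like cells (range 18.4 to 5161) and 188.06 CPM in Slc26a4-/- (range 7.68 to 1085). Of the 7 that passed 10 CPM, 6 were lower by 1 log2 unit in Slc26a4-/-. Their part in the Spp1 values was not tested.

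In SC-like and RC-like cells the mean of Spp1 rested on single cells. Medians were 14.8 and 19.4 CPM in Slc26a4+/+ and Slc26a4-/- SC-like cells, while 1 Slc26a4-/- cell held 12626 CPM. Medians were 21.98 and 15.3 CPM in RC-like cells, while 1 Slc26a4+/+ cell held 11102 CPM. Without the highest cell of each genotype the SC-like log2 difference turned from 1.33 to -2.22.

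Fam20c, the kinase that phosphorylates osteopontin, shared the MC-like pattern. Its Slc26a4+/+ MC-like values ran from 90.5 to 2608 CPM with a median of 932 and a mean of 1012 ± 658 (SD, 14 cells). The 2 Slc26a4+/- cells held 836 and 1463 CPM, and the 5 Slc26a4-/- cells ran from 90 to 1224 CPM with a median of 683. No MC-like cell was without Fam20c, in any genotype. In Slc26a4+/+ the RC-like mean was 154.001, the SC-like mean 111.98 and the IMC-like mean 43.3 CPM, with medians of 6.36, 14.9 and 0.458, so that most Fam20c in those types was in a minority of cells. In IMC-like cells its difference changed sign between run dates, 2.21 in run date 2 and -0.46 in run date 4.

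**Figure D4:**
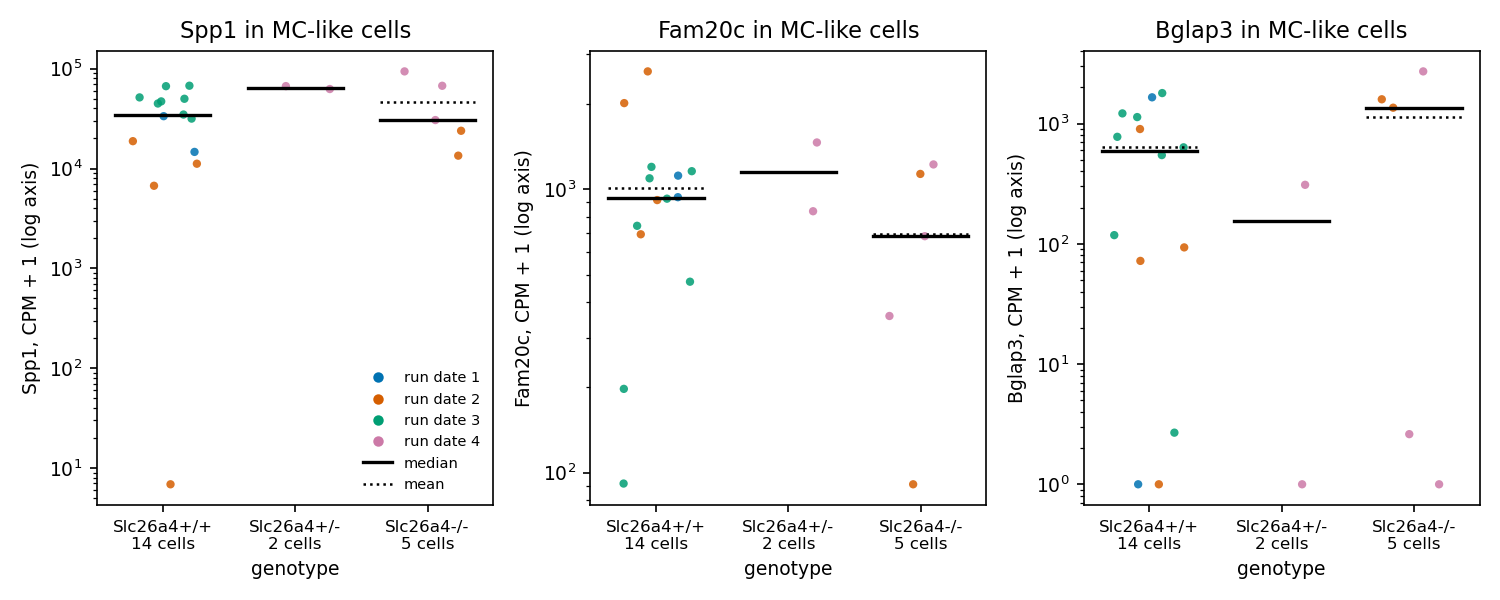
Spp1, Fam20c and Bglap3 in each MC-like cell by genotype, as CPM + 1 on log axes, with points coloured by run date, solid lines at medians and dotted lines at means. Spp1 and Fam20c are present in all 21 cells, and the genotypes overlap for all 3 genes.

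Mgp, the matrix Gla protein, was low in IMC-like cells and lower elsewhere. It had a count in 7 of 60 Slc26a4+/+, 6 of 23 Slc26a4+/- and 10 of 34 Slc26a4-/- IMC-like cells, with means of 11.2, 6.96 and 11.4 CPM. No SC-like or RC-like Slc26a4+/+ cell held a count. The log2 difference for Slc26a4-/- over Slc26a4+/+ in IMC-like cells was 0.02.

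Bglap, which encodes osteocalcin, was high in 1 cell. Bglap (chr3:88383501-88384464), Bglap2 and Bglap3 lie side by side on the minus strand of chromosome 3. Their coding sequences from the GRCm38 transcripts are printed because the likeness limits how reads can be assigned, with capitals where a paralog differs from Bglap.
Bglap: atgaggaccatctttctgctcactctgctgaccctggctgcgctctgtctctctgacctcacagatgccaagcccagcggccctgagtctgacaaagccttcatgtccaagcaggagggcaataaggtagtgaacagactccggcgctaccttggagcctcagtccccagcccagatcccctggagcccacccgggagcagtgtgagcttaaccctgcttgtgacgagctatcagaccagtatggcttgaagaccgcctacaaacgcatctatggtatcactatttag
Bglap2: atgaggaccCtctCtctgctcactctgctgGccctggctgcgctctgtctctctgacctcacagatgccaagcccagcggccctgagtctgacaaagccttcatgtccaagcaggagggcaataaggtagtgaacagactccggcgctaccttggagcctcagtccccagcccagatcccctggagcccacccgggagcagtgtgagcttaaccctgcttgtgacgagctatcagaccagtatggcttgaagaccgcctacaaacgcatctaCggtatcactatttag
Bglap3: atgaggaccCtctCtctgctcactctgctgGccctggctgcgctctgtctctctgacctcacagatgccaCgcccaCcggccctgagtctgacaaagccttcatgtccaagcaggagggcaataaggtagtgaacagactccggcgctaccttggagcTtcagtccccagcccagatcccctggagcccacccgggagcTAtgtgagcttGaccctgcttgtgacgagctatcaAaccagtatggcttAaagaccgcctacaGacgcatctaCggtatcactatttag
Over the coding bases Bglap2 differed from Bglap at 4 and Bglap3 at 13. Of the stretches of 31 bases in each transcript, 80.5% in Bglap, 95.2% in Bglap2 and 35.8% in Bglap3 also occurred in a paralog. Counts of Bglap and Bglap2 are therefore estimates of how shared reads split.

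The Slc26a4+/+ IMC-like mean of Bglap was 36.6 CPM, and 98.4% of that sum came from 1 cell, collected at 32 days and sequenced on run date 2. That cell held 4452 Bglap counts of 2057819, or 2163 CPM. The next highest held 19.3 CPM, and the mean without the cell was 0.593 CPM. In all, 7 of 60 Slc26a4+/+ and 1 of 23 Slc26a4+/- IMC-like cells held a Bglap count. Of 34 Slc26a4-/- cells 0 did, which by the limit of 3 cells of 34 allows a share of cells with a count of up to 8.82%, for counting error only.

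The same cell carried genes of bone cells. It held 22087 CPM of Col1a1 and 695 of Col1a2, the type I collagen chains, and 1000 of Dmp1, an osteocyte protein, but 0 of Sp7, Ibsp, Runx2 and Mepe. The 8 osteoblast and osteocyte markers summed to a median of 1.48 CPM in Slc26a4+/+ IMC-like cells and to 23782 CPM in this cell. It also held 2784.5 CPM of Alpl, 252.7 CPM of Ank and 299.3 CPM of Enpp1. Without it the Slc26a4+/+ mean of Alpl moved from 1554 to 1533 CPM and that of Enpp1 from 17.6 to 12.8 CPM. The log2 difference of Enpp1, Slc26a4-/- over Slc26a4+/+, then moved from 2.39 to 2.81.

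**Figure D5:**
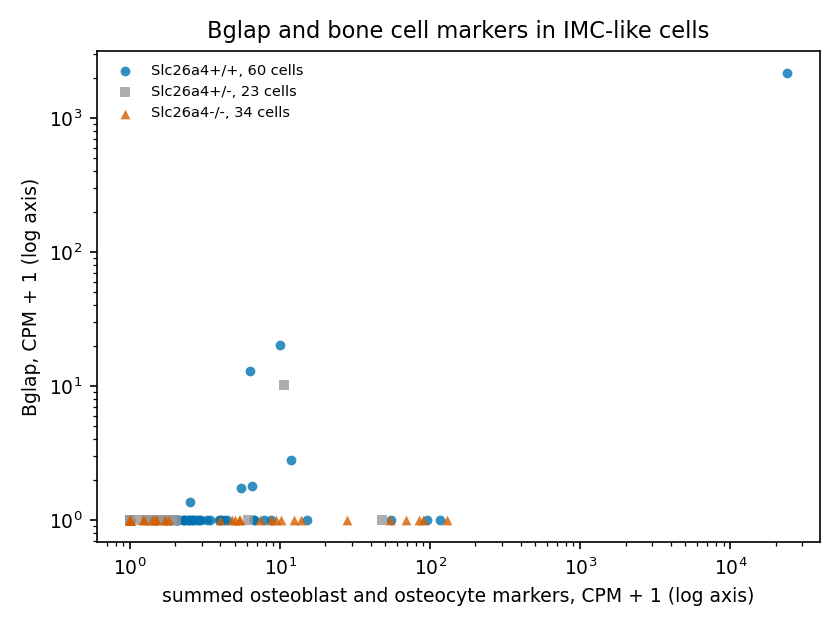
Bglap against the summed osteoblast and osteocyte markers in each IMC-like cell, both as CPM + 1 on log axes, with genotypes by colour and symbol. A single Slc26a4+/+ cell stands at 2163 CPM of Bglap and 23782 CPM of markers, and all other cells hold 19.3 CPM of Bglap or less.

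The Bglap difference for Slc26a4-/- over Slc26a4+/+ was -5.23 on the log2 scale with a pseudocount of 1 CPM and -0.67 without the highest cell. The Slc26a4+/+ mean was 815-fold the floor of 3 counts over the Slc26a4-/- group with that cell and 13.2-fold without it. The mean weights every cell alike whereas the floor pools counts, so neither value is a lower bound of the difference. The floor pools the counts of the group and covers counting error only, since reads are not independent molecules, and Bglap was listed for this contrast. Outside run date 2 the difference was -0.37. The size of the Bglap difference in IMC-like cells thus rested on 1 cell with bone cell markers.

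Bglap3 was high in MC-like cells. In Slc26a4+/+ it ran from 0 to 1794 CPM there, with a median of 590, and 9 of 14 cells held 100 CPM or more. The 5 Slc26a4-/- cells held 0, 1.61, 1355, 1592 and 2717 CPM. Genes most like it were Kcne1 (0.56), Dnase1 (0.49) and Lrp2 (0.48), of the marginal cell marker list. In IMC-like cells Bglap3 averaged 18.4 CPM in Slc26a4+/+ and 2.66 CPM in Slc26a4-/-, a difference of -2.40, and -0.21 and -1.38 within the run dates. Marginal cell markers were lower in the same cells, and their part in it was not tested.

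Of the 10 listed genes in IMC-like cells, 8 passed 10 CPM over all run dates, of which 3 were lower by 1 log2 unit or more (Alpl, Bglap and Slc20a1) and 2 higher (Enpp1 and Slc20a2), where 17.8% of all genes were lower and 11.5% higher. Within run date 2, 8 passed, with 4 lower (Alpl, Ank, Bglap and Slc20a1) and 3 higher (Enpp1, Fam20c and Spp1), against 24.2% and 27.4% of all genes. Within run date 4, 7 passed, with Alpl lower and Enpp1 and Spp1 higher, against 21.2% and 24.7%. Slc20a1 and Enpp1 were counted by gene. The main coding transcripts of Slc20a1 moved in both directions over all run dates, as did the coding transcripts of Enpp1. By gene counts, Alpl was the listed gene that was lower, and Enpp1 the one that was higher, under all 3 comparisons.

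Other genes of the same pathways are described by list in IMC-like cells, Slc26a4-/- over Slc26a4+/+. The shares of all genes to set beside each list are 17.8% lower and 11.5% higher, and nothing particular to a list is read from its count. Genes singled out below for passing 1 log2 unit were chosen after their values were seen. Of 16 phosphatase and pyrophosphate genes 6 passed 10 CPM, with 0 lower and 1 higher, and a median of -0.16 against -0.13 over all genes. The higher one was Ppa1, a cytosolic pyrophosphatase, with means of 9.68 and 29.4 CPM and a log2 difference of 1.51. Slc26a4+/- cells of run date 4 also had more Ppa1 than Slc26a4+/+ cells of that date, by 1.40. Of 8 phosphate transport genes 3 passed, and none was past 1 unit. Slc25a3, the mitochondrial phosphate carrier, averaged 893 CPM in Slc26a4+/+ and 621 CPM in Slc26a4-/-.

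Vitamin B6 handling is tied to Alpl. TNAP removes the phosphate from pyridoxal phosphate, the circulating form of the vitamin, before cells take it up. Pdxk, the kinase that puts the phosphate back inside the cell, averaged 185.7 CPM in Slc26a4+/+ and 485 CPM in Slc26a4-/-, with differences of 1.38 over all run dates, 1.11 within run date 2 and 2.84 within run date 4. Aox1, an oxidase of pyridoxal, averaged 3.81 and 19.7 CPM, with differences of 2.10, 2.82 and 3.26. Both were also higher in Slc26a4+/- than in Slc26a4+/+ cells of run date 4, Pdxk by 2.55 and Aox1 by 4.03. That comparison rests on 7 Slc26a4+/+ cells, 24.3% of all genes were higher in it, and the cause was not tested.

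Of 10 vitamin K and Gla protein genes 5 passed, with 1 lower and 0 higher. The lower one was Gas6, the Gla protein ligand of TAM receptors, which averaged 79.9 and 11.4 CPM, a difference of -2.71, and -2.17 and -7.05 within the run dates. Gas6 averaged 850 CPM in Slc26a4+/+ MC-like cells. Marginal cell markers were lower in the same Slc26a4-/- IMC-like cells, and their part in the Gas6 values was not tested. Ggcx, the carboxylase that makes Gla residues, averaged 176.7 and 166.8 CPM.

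Of 10 SIBLING proteins and secretory kinases 4 passed, and the 2 that were lower, Dmp1 and Dspp, rested on the cell with bone markers. Their differences were -4.11 and -3.87 with that cell and -0.11 and 0.05 without it. Sparc, a collagen-binding matrix protein, averaged 238.5 and 261.2 CPM.

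Of 7 osteopontin receptor genes all passed, with 2 lower and 1 higher. Itgb5 averaged 24.5 and 8.28 CPM (log2 difference -1.46) and Itga9 48.5 and 16.03 CPM (-1.54), while Itgb3 averaged 16.3 and 85.3 CPM (2.32). Itgb5 was past 1 unit in both run dates and Itgb3 in run date 2 alone, at 6.19 against 0.72. Itgb5 averaged 1443 CPM in Slc26a4+/+ MC-like cells, and the part of the lower marginal cell markers in its values was not tested. Cd44, a hyaluronan and osteopontin receptor, averaged 308 and 292.5 CPM.

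Markers of further cell types were read in the same IMC-like cells, Slc26a4-/- against Slc26a4+/+. None of the endothelial, macrophage, neutrophil precursor and B cell markers reached 10 CPM over all run dates. Of the pericyte and smooth muscle list 1 marker, Cspg4, passed and was higher in Slc26a4-/-, where the list summed to a median of 141.3 CPM against 1.03. The 2 erythroid markers that passed, Hba-a1 and Hbb-bs, were lower, with list medians of 0 against 4.61 CPM. The 2 fibroblast markers that passed, Dcn and Lum, were lower, as were Cldn11 of the basal cell list, Car3 and Coch of the fibrocyte list, Mbp of the Schwann list and Wfdc18 of the SC list, while Anxa1 of the SC list was higher. None of the RC, chondrocyte and osteoclast markers was past 1 log2 unit over all run dates. The part of these cell types in the results was not tested.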

How the data were processed

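Single cells were profiled with Smart-Seq2. The authors pseudoaligned reads with kallisto to a mouse transcriptome (GRCm38/mm10) and deposited, per the file headers, estimated counts and TPM per transcript and a gene table of estimated counts in whole numbers. The kallisto version and annotation are not given in the sources used here. Of the gene-level columns, 17 match no sample and were not used.

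CPM were computed here from the estimated counts. A difference is the log2 ratio of (mean CPM + 1), and a gene counts as lower or higher past 1 log2 unit where either mean reached 10 CPM. No test was run, since the labels tie no cell to a mouse and each genotype is then 1 sample. Cells were clustered with Seurat 5.3.0 in R 4.3.3 (10 components, resolution 0.8), leaving out 553 genes, among them the listed genes. Clusters were named when 80% of cells scored highest for 1 marker list, with 3 detected markers. These limits were set after the data were seen, and differences from the study may come from rebuilt names. No doublet caller was run on the hand-picked cells. Python 3.11.15, numpy 2.4.6, pandas 2.3.3, scipy 1.17.1 and matplotlib 3.10.9 were used, and the ratio step was tested on simulated data. Intervals are exact Clopper-Pearson, at 95%. GENCODE M21 gave positions.

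The members and lists were chosen with earlier results of these data known. Named genes are the listed ones, Bglap2, Bglap3, up to 4 members of each pathway list by mean level, and the 3 genes most like each by rank correlation. Alternatives were pseudocounts, minimum level, depth filter, TPM, other clusterings, single run dates and sessions left out. Some genes of the lists are not reported here.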

Additional observations from a re-analysis of the deposited data

Results flagged for a closer look

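Of 47 sets of 4 to 10 cells or session means, 6 had an extreme value far from its nearest neighbour. The limit used is passed by about 1 in 20 sets of independent normal values. These sets hold zeros, and some cells enter both singly and in session means, so the 6 are not set against that rate. Among 9 Slc26a4-/- SC-like cells, the highest Enpp1 value was 181.5 CPM (nearest 3.87) and the highest Slc20a1 value 254.7 CPM (nearest 0). Slc20a2 in Slc26a4+/- had a session mean of 391.3 CPM in IMC-like cells (1 cell; nearest of the 4 sessions 158.5) and of 219.9 CPM in RC-like cells (nearest 0.440). In Slc26a4-/- IMC-like cells the lowest of 9 session means was 2.59 CPM for Alpl (1 cell; nearest 62.4) and 61.98 CPM for Spp1 (nearest 480).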

How the results depend on the processing

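The Alpl difference in IMC-like cells (-2.19) kept its direction under all 48 alternatives, from -3.44 to -1.74, and from -2.42 to -1.95 when sessions were left out in turn. The Bglap difference (-5.23) was -7.52 within run date 2, -1.44 within run date 4, -0.37 without run date 2, 0.00 by medians, -8.52 and -2.22 with pseudocounts of 0.1 and 10 CPM, -7.93 by TPM, -0.67 without the highest cell, and -9.67 at the floor of 3 counts. It ran from -5.44 to -0.67 when sessions were left out. The Alpl gap between IMC-like and the next type (5.89) was 2.57 with types set by marker scores, 8.45 with cells of at least 100000 counts and 2500 genes, 7.69 without run date 3 and 8.38 without the highest cells. Over the other listed genes, 11 of 22 pairs of gene and type at 10 CPM or more were past 1 unit, 19 of 20 within run date 2 and 5 of 11 within run date 4. Of all genes, 17.8% were lower and 11.5% higher in IMC-like cells, 33.4% and 22.1% in SC-like and 26.4% and 26.1% in MC-like cells. In IMC-like cells these shares were 24.2% and 27.4% within run date 2 and 21.2% and 24.7% within run date 4. Shares for RC-like cells, and for SC-like and MC-like cells within a run date, are not given here. Nothing particular to the listed genes is therefore read from these counts. The 1699 genes lower in Slc26a4-/- IMC-like cells became 552 at a minimum of 50 CPM and 2770 with none. Of the 22 pairs, 11 changed sign under at least 1 alternative. Among the 11 past 1 unit 4 did: Spp1 in SC-like cells without the highest cells (1.33 to -2.22), Spp1 in RC-like cells within run date 2 (-4.04 to 2.51), Slc20a1 in MC-like cells within run date 2 (4.43 to -0.32) and Slc20a2 in MC-like cells with marker scores (6.21 to -0.58). Among the others were Ank in RC-like cells (-0.95, to 3.42 within run date 2), Fam20c in RC-like cells (0.16, from -1.57 to 2.05) and Fam20c in MC-like cells (-0.54, to 0.72 with marker scores). Causes were not tested. Alternatives that leave out the highest cells, the ages outside 24 to 34 days or the cell with bone markers, set Slc26a4+/- as denominator or use the floor were chosen after seeing the data. No paired analysis was possible because the replicate numbers only name cells; the 5 collection codes shared by both homozygous genotypes are described without a test. Within a cell, few counts limit low genes: a gene at 0 was not detectable at that depth, and absence was not shown.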
